A study of Mus musculus with 15 samples.

Results

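The genes of bile acid sensing and transport were followed in bulk RNA-seq of mouse colonic crypts. They are 10 of the 32939 genes in the count table, taken by symbol, with no threshold on a measured value, though earlier results of these data were known when they were chosen: the receptors Nr1h4 and Gpbar1, the FXR target genes Nr0b2 and Fgf15, the uptake transporter Slc10a2, the intracellular carrier Fabp6, and the exporters Slc51a, Slc51b, Abcc3 and Abcc2. All samples were wild-type mice given an adeno-associated virus (AAV), with 5 samples in each of 3 groups. FL-shAlpl samples had the CDAA diet, a fatty liver and AAV-shAlpl. FL-shGFP samples had the CDAA diet, a fatty liver and AAV-shGFP. NL-shGFP samples had the normal diet, a normal liver and AAV-shGFP. CDAA commonly stands for a feed that lacks choline and has free amino acids as its protein source, and Alpl encodes tissue-nonspecific alkaline phosphatase, which the shRNA targets. Diet and liver state went together, AAV-shAlpl was given only with a fatty liver, and neither the promoter of the shRNA nor the cells the vector reached were stated. The labels did not say that the samples of a group were separate animals, so the p-values below measure the spread between samples, which may in part be technical.

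Bile acids that reach the ileum are taken up across the brush border by the sodium-dependent transporter SLC10A2 (ASBT), held in the cytosol by FABP6, and passed to the blood by the basolateral exporter OSTα-OSTβ, made of SLC51A and SLC51B. Inside the cell they activate FXR, the nuclear receptor encoded by Nr1h4, which binds DNA with RXR and induces Slc51a, Slc51b, Fabp6, Nr0b2 (SHP) and the hormone gene Fgf15, whose product lowers bile acid synthesis in the liver. The colon normally carries out little of the active uptake, and the bile acids there are largely secondary ones made by bacteria, which also act on the surface receptor TGR5, encoded by Gpbar1.

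Depth ran from 42.1 M to 58.6 M counts in FL-shAlpl, 37.5 M to 51.7 M in FL-shGFP and 33.3 M to 41.4 M in NL-shGFP, and mitochondrially encoded genes held 14.8% to 24.3% of them in FL-shAlpl, 13.7% to 21.5% in FL-shGFP and 28.0% to 37.5% in NL-shGFP. In the crypts the shRNA target Alpl itself was scarce, with at most 6 counts in any FL-shAlpl sample, 14 to 25 counts in FL-shGFP and at most 2 in NL-shGFP, and was lower in FL-shAlpl than in FL-shGFP (log2 difference -3.16 ± 0.63, edgeR adjusted p = 0.00197). Set against regional markers, the colonic label had a mixed picture. Of the colon list, Cdx1 (162 to 325 CPM) and Cdx2 (91 to 201) were abundant in all samples, while in NL-shGFP Hoxa13 was at 3.21 to 11.3 CPM, Hoxd13 at 0.426 to 2.73 and Hoxd12 at 0. Of the small intestinal list, Gata4 (1.99 CPM or less) and Lct (0.201 or less) were scarce in all samples, while Fabp2 (79 to 292) and Slc5a1 (102 to 262) were abundant in all. CPM here is a gene's count divided by the TMM-scaled library size in M counts, and ± beside it is the SD over n = 5 samples. Fold changes are log2 values ± standard error from 1 edgeR quasi-likelihood fit to 17404 genes, and every adjusted p is Benjamini-Hochberg adjusted over those genes and called below 0.05.

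The promoter letters of 5 of the genes are given because Slc51a, Slc51b, Slc10a2 and Nr1h4 were called higher in FL-shGFP over NL-shGFP and lower in FL-shAlpl over FL-shGFP, while Fabp6, the fifth, was neither. Of the 10 genes, 8 matched an entry in the RefSeq promoter table (GRCm38.p6), among them Gpbar1, Nr0b2 and Abcc2, and each sequence below is the 250 bases upstream of the annotated start, read 5′ to 3′ in the direction of the gene. Capitals mark matches, on either strand, to 4 motifs: AGGTCANTGACCT with at most 2 mismatches, the inverted repeat bound by FXR with RXR; AGGTCA, its single unit; CAAAGT, part of an HNF4 element; and TTTATG, a CDX element. The unit AGGTCA is contained in the inverted repeat, and no 2 matches overlapped in these windows.
Slc51a, chr16:32487880-32488129 (minus strand): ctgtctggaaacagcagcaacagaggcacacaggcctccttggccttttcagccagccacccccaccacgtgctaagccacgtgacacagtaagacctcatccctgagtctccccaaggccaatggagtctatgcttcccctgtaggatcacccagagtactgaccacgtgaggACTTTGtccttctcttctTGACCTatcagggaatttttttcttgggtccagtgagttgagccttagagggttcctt
Slc51b, chr9:65422774-65423023 (minus strand): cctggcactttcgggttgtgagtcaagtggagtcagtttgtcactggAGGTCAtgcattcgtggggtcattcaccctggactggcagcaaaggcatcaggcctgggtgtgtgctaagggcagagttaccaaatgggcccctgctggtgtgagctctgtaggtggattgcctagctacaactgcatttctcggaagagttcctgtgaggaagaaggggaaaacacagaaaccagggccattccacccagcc
Slc10a2, chr8:5105288-5105537 (minus strand): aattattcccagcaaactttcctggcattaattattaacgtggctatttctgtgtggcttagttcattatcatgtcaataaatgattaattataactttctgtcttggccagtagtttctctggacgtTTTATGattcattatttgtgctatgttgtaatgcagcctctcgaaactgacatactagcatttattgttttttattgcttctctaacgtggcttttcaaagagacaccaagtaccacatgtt
Nr1h4, chr10:89506659-89506908 (minus strand): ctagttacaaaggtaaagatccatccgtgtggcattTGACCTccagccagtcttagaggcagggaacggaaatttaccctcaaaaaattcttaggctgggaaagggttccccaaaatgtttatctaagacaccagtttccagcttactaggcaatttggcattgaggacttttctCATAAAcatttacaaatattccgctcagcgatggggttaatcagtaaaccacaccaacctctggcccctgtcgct
Fabp6, chr11:43601563-43601812 (minus strand): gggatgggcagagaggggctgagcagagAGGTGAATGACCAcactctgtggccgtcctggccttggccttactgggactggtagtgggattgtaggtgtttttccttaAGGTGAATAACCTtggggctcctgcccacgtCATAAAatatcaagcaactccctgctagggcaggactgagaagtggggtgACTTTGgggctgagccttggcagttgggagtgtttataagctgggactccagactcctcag

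The inverted repeat was matched in Fabp6 alone among the 8 promoters, at 2 places, AGGTGAATGACCA from -222 to -210 and AGGTGAATAACCT from -142 to -130 relative to the start. Such a match occurred in 0.959% of all 32851 promoters in windows of the same length. The single unit AGGTCA, found in 14.0% of promoters, was present in Slc51a at -58 to -53, in Slc51b at -203 to -198, in Nr1h4 at -214 to -209 and in Abcc2. CAAAGT, found in 12.6%, was present in Fabp6, Slc51a and Abcc2, and TTTATG, found in 10.8%, in Nr1h4, Fabp6 and Slc10a2. These are matches of letters and not measured binding, and elements outside 250 bases were not looked at.

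Set side by side, 5 of the 10 genes, Nr1h4, Slc10a2, Slc51a, Slc51b and Abcc3, were higher in the fatty liver group FL-shGFP than in NL-shGFP, and none was lower. All but Abcc3 were lower in FL-shAlpl than in FL-shGFP. Of the 10 genes, 7 passed the filter on low counts and were tested, and Gpbar1, Nr0b2 and Fgf15 did not. In FL-shGFP against NL-shGFP, 5 of the 7 rose and 0 fell by edgeR (0 at an unadjusted p below 0.05, and 0 by DESeq2), where 25.1% of all genes tested rose and 21.6% fell. The median log2 fold of the 7 was 1.32, beside -0.002 over all genes tested. In FL-shAlpl against FL-shGFP, 4 of the 7 fell and 1 rose, where 17.9% of all genes tested fell and 18% rose, with medians of -0.99 and -0.004. The rise was that of Fabp6 and rested on FL-shAlpl replicate 1, at 101 CPM against 3.84 to 10.3 CPM in the rest of its group. Without that sample the edgeR difference was 0.15 (adjusted p = 0.702). In FL-shAlpl against NL-shGFP, 2 of the 7 rose and 0 fell by edgeR (0 at an unadjusted p below 0.05, and 0 by DESeq2), where 9.31% of all genes tested rose and 8.13% fell, with medians of 0.84 and 0.052. Since the first and second of these comparisons both use the FL-shGFP samples, they are not independent of each other.

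The same genes were separated sample by sample. The 5 that rose in FL-shGFP had every FL-shGFP sample above every NL-shGFP sample, which held upward for 18.1% of all genes tested. The 4 that fell in FL-shAlpl had every sample below every FL-shGFP sample, against 9.29% of all genes tested. The untested Gpbar1, which that share does not cover, was separated only by library scaling. Its nearest samples, at 0.0833 CPM in FL-shAlpl and 0.0861 CPM in FL-shGFP, held 4 counts each. Between FL-shAlpl and NL-shGFP, Abcc3 was the 1 gene of the 10 whose groups did not overlap, with every FL-shAlpl sample higher, against 7.54% of all genes tested.

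**Figure D1:**
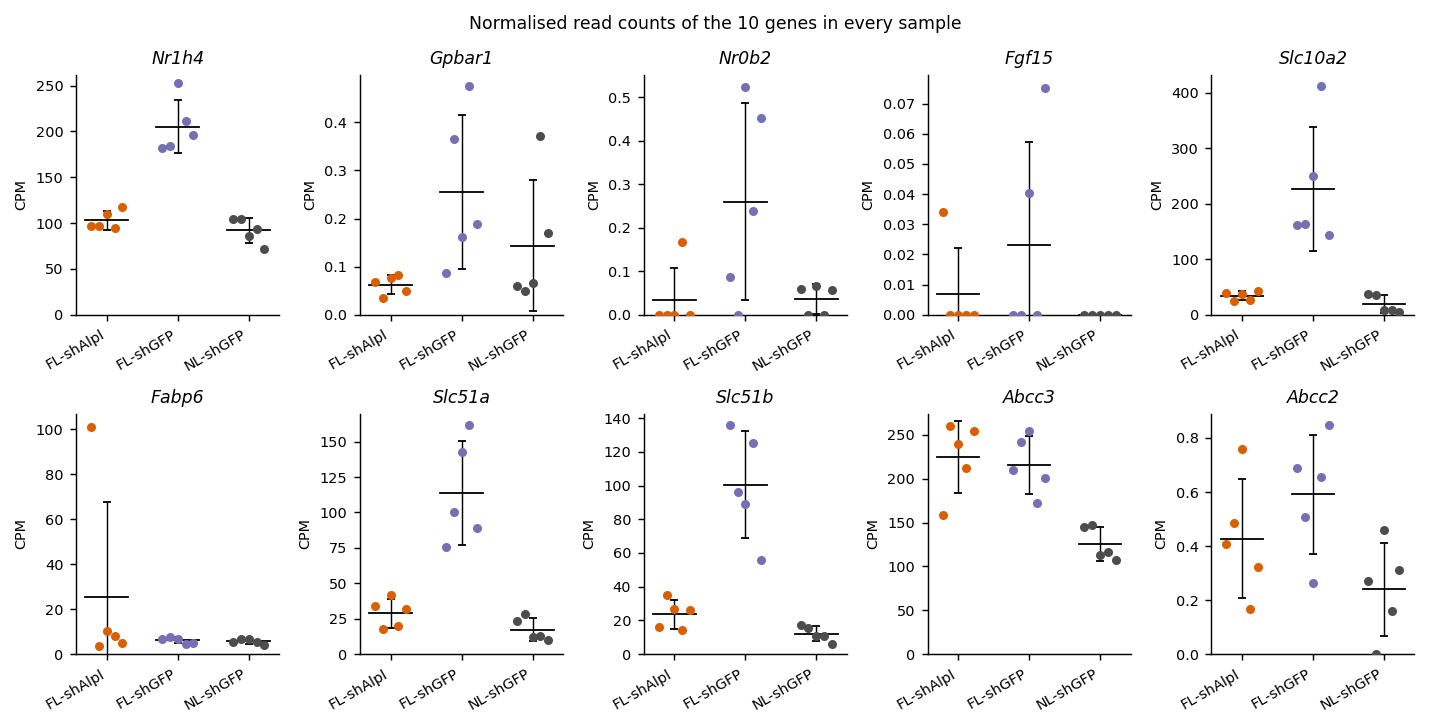
Each panel plots 1 gene, with TMM-scaled CPM on a linear axis from 0 and the 5 samples of each group as points in the order of their replicate numbers. The horizontal line is the mean and the bar the SD. Nr1h4, Slc10a2, Slc51a and Slc51b are high in FL-shGFP and lower on either side, Abcc3 is high in both CDAA diet groups, and Fabp6 has a single high point of 101 CPM in FL-shAlpl.

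Nr1h4, the gene of the receptor FXR, was highest in FL-shGFP. It was at 96.7, 97.4, 110, 94.3 and 118 CPM in the FL-shAlpl samples (replicates 1 to 5, as in all such series), at 182, 184, 253, 211 and 196 CPM in FL-shGFP, and at 104, 105, 86.5, 93.4 and 72.2 CPM in NL-shGFP. The FL-shGFP samples stood apart from both other groups, which overlapped each other. The rise in FL-shGFP over NL-shGFP was 1.15 ± 0.12 on the log2 scale, or 2.22-fold (edgeR adjusted p = 1.29e-05). FL-shAlpl was lower than FL-shGFP, with a difference of -0.99 ± 0.12 (adjusted p = 9.59e-05). Against NL-shGFP the difference in FL-shAlpl was 0.16 ± 0.12 and did not pass (adjusted p = 0.388). Nr1h4 was also among the least variable of the 10 genes, with an SD of 9.87%, 14.3% and 14.8% of the mean in FL-shAlpl, FL-shGFP and NL-shGFP.

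Gpbar1, the gene of the surface receptor TGR5, was near the limit of detection. Its counts were 4, 2, 4, 4 and 2 in FL-shAlpl, 4, 18, 8, 16 and 10 in FL-shGFP, and 2, 2, 2, 14 and 6 in NL-shGFP. In CPM every FL-shAlpl sample (0.0346 to 0.0833) lay just below the lowest FL-shGFP sample (0.0861). With no filter on low counts the difference between those groups was -1.95 ± 0.70 (adjusted p = 0.057), short of the threshold. Counts of this size were mostly even numbers, here and across the table.

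The target genes Nr0b2, a corepressor that acts downstream of FXR, and Fgf15, the enteric hormone gene, were nearly absent. Nr0b2 had counts of 0, 0, 0, 8 and 0 in FL-shAlpl, 4, 0, 26, 8 and 24 in FL-shGFP, and 2, 0, 2, 0 and 2 in NL-shGFP. In FL-shGFP 4 samples were above all NL-shGFP samples and 1 was at 0. With no filter its difference was 2.77 ± 1.21 in FL-shGFP over NL-shGFP (adjusted p = 0.105) and -2.91 ± 1.17 in FL-shAlpl over FL-shGFP (adjusted p = 0.0974). Fgf15 had 2 counts in FL-shAlpl, 6 in FL-shGFP and 0 in NL-shGFP, summed over the 5 samples of each. A count of 0 over the NL-shGFP group allows up to 0.0162 CPM if each count is independent (3 counts of 185 M unscaled counts, counting error only). Small counts were mostly even, so the limit may be higher. With no filter the difference in Fgf15 was 3.23 ± 1.61 in FL-shGFP over NL-shGFP (adjusted p = 0.159) and -1.39 ± 1.47 in FL-shAlpl over FL-shGFP (adjusted p = 0.539). The exons of Fgf15 also overlap 2 annotated antisense transcripts.

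Slc10a2, the apical bile acid uptake transporter, had the largest fold of the 10 genes in the fatty liver comparison. It was at 39.3, 24.4, 38.0, 26.7 and 43.2 CPM in FL-shAlpl replicates 1 to 5, at 162, 164, 250, 412 and 143 CPM in FL-shGFP, and at 37.2, 36.1, 9.45, 7.83 and 5.06 CPM in NL-shGFP. NL-shGFP replicates 1 and 2 were as high as the FL-shAlpl samples, the other three were lower, and FL-shGFP was above all of them. The rise in FL-shGFP over NL-shGFP was 3.56 ± 0.54, or 11.8-fold (adjusted p = 0.000163), and FL-shAlpl was lower than FL-shGFP, with a difference of -2.72 ± 0.52, or 6.6-fold lower (adjusted p = 0.0016). FL-shAlpl differed from NL-shGFP by 0.84 ± 0.49, which did not pass (adjusted p = 0.26). In bulk samples, fewer cells that express such a gene and less RNA per cell cannot be told apart.

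Fabp6, the carrier protein best known from the ileum, did not follow the uptake transporter. It was at 101, 3.84, 10.3, 8.03 and 4.97 CPM in FL-shAlpl, at 6.81, 7.58, 6.75, 4.61 and 4.93 CPM in FL-shGFP, and at 5.48, 6.73, 6.86, 5.53 and 3.89 CPM in NL-shGFP. FL-shAlpl replicate 1 was about an order of magnitude above the rest, and the other 14 samples overlapped. The edgeR fit called Fabp6 higher in FL-shAlpl than in FL-shGFP (2.06 ± 0.73, adjusted p = 0.039), but without FL-shAlpl replicate 1 the difference was 0.15 ± 0.27 (adjusted p = 0.702). The call was also lost without any 1 of the FL-shGFP samples (adjusted p from 0.059 to 0.0867) and with no filter on low counts (2.09 ± 0.81, adjusted p = 0.105). In FL-shGFP over NL-shGFP the difference in Fabp6 was 0.11 ± 0.72 (adjusted p = 0.916).

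FL-shAlpl replicate 1 was also the highest FL-shAlpl sample for 6 of the 12 small intestinal genes measured. Apoa1, an apolipoprotein gene of the small intestine, was at 51.8 CPM there and at 0.0758 to 0.544 CPM in the other four, Enpep was at 55.9 against 5.44 to 11.2 CPM, and Sis, sucrase-isomaltase, at 20.1 against 1.96 to 3.83 CPM. At lower levels, Apoa4 was at 0.544 against 0 to 0.0494 CPM, Apoc3 at 0.289 against 0.0416 to 0.0866 CPM, and Slc6a19 at 5.44 against 0.445 to 3.85 CPM. It was not the highest for the other 6: Lct (0.102 CPM), Rbp2 (7.21), Gata4 (0.68), Fabp2 (113) and Slc5a1 (106) lay within the range of the other FL-shAlpl samples, and Fabp1 (0.884) below it. FL-shGFP samples reached higher levels of Sis (8.7 to 73.5 CPM), Slc6a19 (10.6 to 22.5) and Apoa4 (0.151 to 0.773), with Fabp6 at 4.61 to 7.58 CPM. They stayed below FL-shAlpl replicate 1 for Apoa1 (0.564 to 11.3 CPM), Enpep (18.2 to 32.8) and Apoc3 (0.0595 to 0.201). How often this sample was the highest over all genes is not given here. The distal colon gene Hoxb13 was at 83.6 CPM, within their range (79.6 to 133). The part these genes have in the Fabp6 value was not tested.

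Slc51a and Slc51b, the subunits of the basolateral exporter, each had all 5 FL-shGFP samples on top. Slc51a was at 34.0, 17.5, 41.7, 19.7 and 31.8 CPM in FL-shAlpl, at 75.9, 100, 143, 162 and 88.7 CPM in FL-shGFP, and at 23.5, 28.1, 12.1, 12.9 and 10.1 CPM in NL-shGFP. It rose by 2.72 ± 0.33 in FL-shGFP over NL-shGFP, or 6.57-fold (adjusted p = 4.05e-05), and fell by 1.98 ± 0.32 in FL-shAlpl against FL-shGFP (adjusted p = 0.000654). The 0.74 ± 0.32 by which FL-shAlpl exceeded NL-shGFP did not pass (adjusted p = 0.121).

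Slc51b was at 15.8, 34.8, 26.6, 14.5 and 26.4 CPM in FL-shAlpl, at 136, 96.3, 89.2, 125 and 55.6 CPM in FL-shGFP, and at 17.3, 15.6, 11, 10.8 and 6.0 CPM in NL-shGFP. The lowest FL-shGFP sample was still above every sample of the other groups. The rise in FL-shGFP over NL-shGFP was 3.05 ± 0.33, or 8.26-fold (adjusted p = 1.7e-05), and FL-shAlpl was lower than FL-shGFP, with a difference of -2.09 ± 0.31 (adjusted p = 0.000361). FL-shAlpl stayed above NL-shGFP by 0.96 ± 0.31 (adjusted p = 0.043), with 3 of 5 FL-shAlpl samples above all NL-shGFP samples. That last call was narrow: it was lost with upper-quartile factors (adjusted p = 0.0572), with no filter on low counts (0.114), with NL-shGFP replicates 3 and 4 summed (0.0894), with 1 and 2 summed as well (0.0992), and when 1 of these samples was left out: replicates 3, 4 and 5 of NL-shGFP, 2 and 3 of FL-shGFP, or 2, 3 and 5 of FL-shAlpl (adjusted p from 0.0514 to 0.15).

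Both exporter genes share exon sequence with a gene on the opposite strand, and the strand setting of the counts is not given in the sources used here. Slc51a shares 567 bases with Pcyt1a, which held 41106 counts over all samples beside 36307 for Slc51a. Pcyt1a averaged 61.9 ± 3.97 CPM in FL-shAlpl, 66.7 ± 11 in FL-shGFP and 56.1 ± 3.77 in NL-shGFP and passed in none of the 3 comparisons. Slc51b shares 91 bases with Rasl12, which held 1435 counts beside 30921 for Slc51b. Rasl12 moved with Slc51b, by 2.71 ± 0.31 in FL-shGFP over NL-shGFP (adjusted p = 2.33e-05) and -2.41 ± 0.31 in FL-shAlpl over FL-shGFP (adjusted p = 0.000106), at means of 0.895, 4.76 and 0.724 CPM in FL-shAlpl, FL-shGFP and NL-shGFP. How many reads each pair shares was not tested.

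Abcc3, the gene of the basolateral efflux pump MRP3, was high in both groups on the CDAA diet. It was at 159, 260, 239, 212 and 254 CPM in FL-shAlpl, at 210, 242, 254, 172 and 201 CPM in FL-shGFP, and at 145, 147, 113, 116 and 107 CPM in NL-shGFP. Every CDAA diet sample was above every NL-shGFP sample, and FL-shAlpl and FL-shGFP overlapped. Abcc3 rose by 0.78 ± 0.15 in FL-shGFP over NL-shGFP, or 1.72-fold (adjusted p = 0.000773), and by 0.84 ± 0.15 in FL-shAlpl over NL-shGFP, or 1.79-fold (adjusted p = 0.00164). FL-shAlpl and FL-shGFP differed by 0.06 ± 0.15 (adjusted p = 0.779), so Abcc3 was the 1 of the 5 genes raised in FL-shGFP that was not called lower in FL-shAlpl.

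Abcc2, the gene of the apical efflux pump MRP2, was close to the detection limit. Its counts ran from 8 to 40 in FL-shAlpl, from 13 to 45 in FL-shGFP and from 0 to 14 in NL-shGFP, with means of 0.428 ± 0.219, 0.592 ± 0.221 and 0.240 ± 0.172 CPM. It did not pass in FL-shGFP over NL-shGFP (1.32 ± 0.61, adjusted p = 0.086, though DESeq2 gave 0.0459), in FL-shAlpl over FL-shGFP (-0.46 ± 0.57, adjusted p = 0.555) or in FL-shAlpl over NL-shGFP (0.86 ± 0.61, adjusted p = 0.365).

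**Figure D2:**
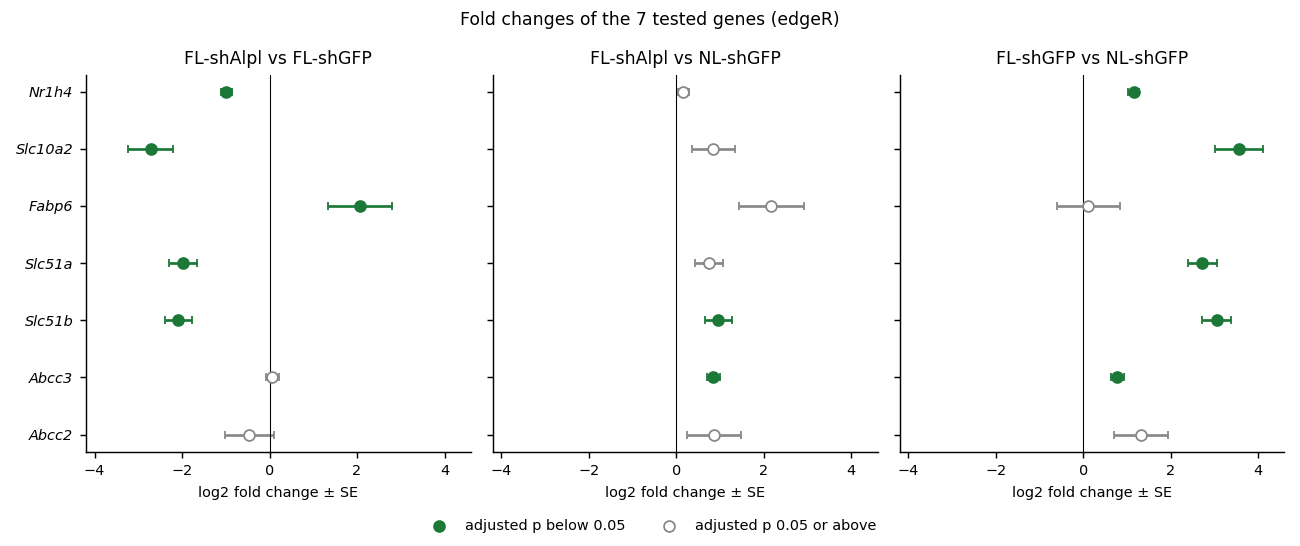
The log2 fold change of the 7 tested genes (points) with its standard error (bars) is plotted for each of the 3 comparisons, filled where the adjusted p is below 0.05. Nr1h4, Slc10a2, Slc51a and Slc51b lie left of 0 in FL-shAlpl against FL-shGFP and right of 0 in FL-shGFP against NL-shGFP, and Abcc3 lies near 0 in the first and at 0.84 and 0.78 in the other two.

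NL-shGFP replicates 1 and 2 were above replicates 3 to 5 for Nr1h4, Slc10a2, Slc51a, Slc51b and Abcc3. These 2 libraries were also closer to each other over all genes than most pairs, differing 2.52 times the variance of sampling noise, as were replicates 3 and 4 (1.58 times). The other pairs within NL-shGFP differed 3.6 to 8.53 times. Since all exceeded sampling noise they were kept as separate samples, and with replicates 1 and 2 and replicates 3 and 4 each summed, 5 of the 10 genes still rose in FL-shGFP over NL-shGFP.

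Levels per length, as the deposited FPKM, set the genes beside each other. In FL-shGFP the median was highest for Slc51b (131 FPKM), then Nr1h4 (82.1), Abcc3 (39.0), Slc10a2 (38.1), Slc51a (30.7) and Fabp6 (13.7). Slc51b and Nr1h4 overlapped in range, as did Abcc3, Slc10a2 and Slc51a each with the next, and the steps after Nr1h4 and after Slc51a were larger than the spread over samples. In FL-shAlpl the order was Nr1h4 (46.5 FPKM), Abcc3 (42.9), Slc51b (35.8), Fabp6 (18.1), Slc10a2 (10) and Slc51a (9.57), each overlapping the next. In NL-shGFP it was Nr1h4 (37.1 FPKM), Abcc3 (19.8), Slc51b (14.0), Fabp6 (10.9), Slc51a (3.70) and Slc10a2 (2.05), where the steps after Nr1h4 and after Fabp6 exceeded the spread. Gpbar1, Nr0b2, Abcc2 and Fgf15 followed in every group with medians of at most 0.194 FPKM.

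**Figure D3:**
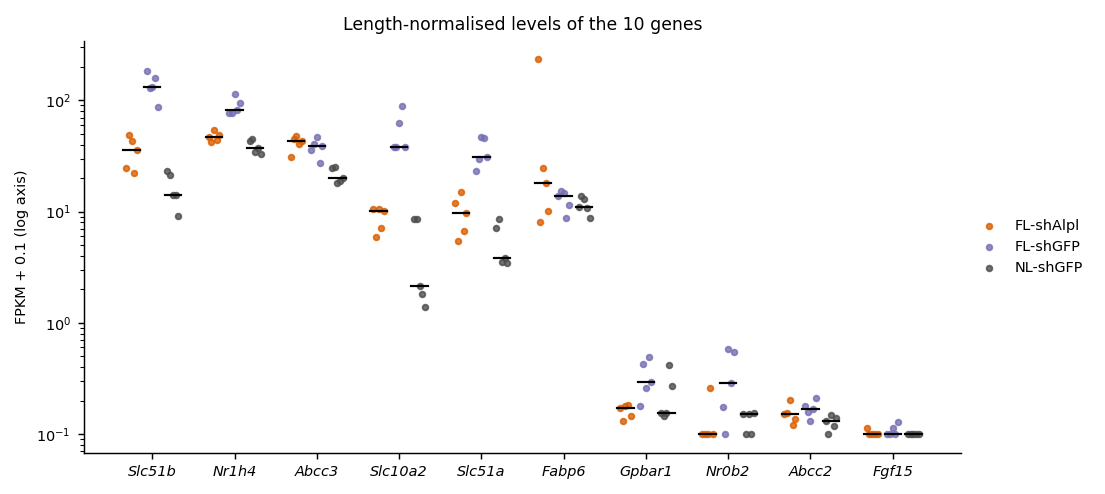
Deposited FPKM plus 0.1 is plotted on a log axis for the 10 genes, with each sample as a point and the group median as a line. Slc51b is the highest gene in FL-shGFP, at a median of 131 FPKM, while Nr1h4 is the highest in FL-shAlpl and NL-shGFP at 46.5 and 37.1 FPKM, and Gpbar1, Nr0b2, Abcc2 and Fgf15 lie near the bottom in all groups.

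Ratios of gene pairs within a sample depend little on library scaling where both genes are far above the pseudocount, and 3 pairs were tested in 3 comparisons by exact permutation over samples (two-sided, 5 against 5, smallest possible p 0.00794, log2 of FPKM plus 0.1). Slc51b to Nr1h4, exporter subunit to receptor, averaged -0.50 ± 0.49 in FL-shAlpl, 0.61 ± 0.57 in FL-shGFP and -1.30 ± 0.38 in NL-shGFP (SD, n = 5 each). All 5 FL-shGFP samples were above all NL-shGFP samples. In linear terms the median ratio was 0.728 in FL-shAlpl, 1.7 in FL-shGFP and 0.413 in NL-shGFP. The exact p was 0.00794 for FL-shGFP over NL-shGFP (difference 1.91), 0.0238 for FL-shAlpl over FL-shGFP (difference -1.11) and 0.0238 for FL-shAlpl over NL-shGFP (difference 0.80). After adjustment over the 9 tests each stood at 0.0536 and did not pass the exact permutation test at 0.05.

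The ratio between the exporter's subunits overlapped between all groups and passed in none of the comparisons. Slc51a to Slc51b averaged -1.87 ± 0.78 in FL-shAlpl, -1.98 ± 0.63 in FL-shGFP and -1.66 ± 0.30 in NL-shGFP, and the smallest exact p of its 3 comparisons was 0.389. The third pair, Abcc3 to Abcc2, pumps of opposite faces of the cell, gave no usable ratio. Abcc2 was at 0 to 0.11 FPKM, so the pseudocount sets the value: FL-shGFP over NL-shGFP differed by 0.41 with 0.1 added and by -0.42 with 0.01 added. With none added the median ratio was 805 in FL-shAlpl, 457 in FL-shGFP and 659 in NL-shGFP, where 1 NL-shGFP sample with Abcc2 at 0 gave no ratio. Of the 9 tests, 0 passed after adjustment and 4 had an unadjusted exact p below 0.05, 3 of them of Slc51b to Nr1h4. With a pseudocount of 1 the 3 differences of Slc51b to Nr1h4 had the same exact p-values of 0.00794, 0.0238 and 0.0238 but adjusted permutation p-values of 0.0238, 0.0429 and 0.0429. The adjusted values moved because those of Abcc3 to Abcc2, which then follow Abcc3 alone, are in the same family of 9.

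**Figure D4:**
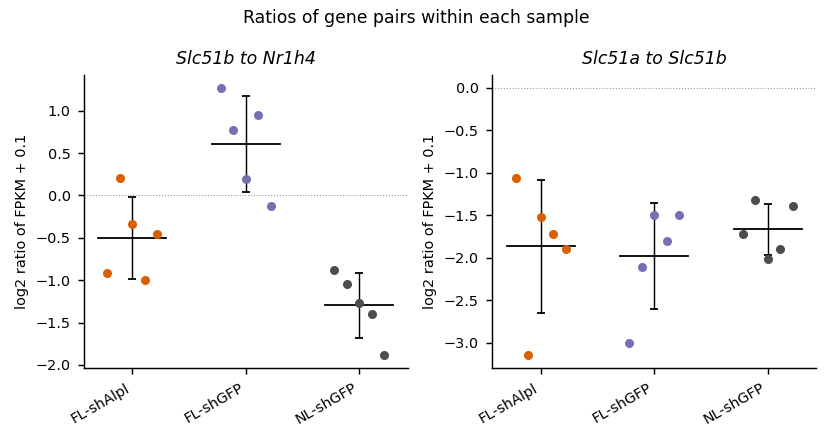
The log2 ratio of FPKM plus 0.1 is plotted for 2 gene pairs, with each sample as a point, the mean as a line and the SD as a bar. Slc51b to Nr1h4 is highest in FL-shGFP (mean 0.61) and lowest in NL-shGFP (mean -1.30), and Slc51a to Slc51b overlaps between all groups.

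Among 45 other bile acid genes, 44 were measured and 37 tested. In FL-shGFP over NL-shGFP 20 rose and 3 fell, with a median of 0.55. In FL-shAlpl over FL-shGFP 1 rose and 12 fell (median -0.23), and in FL-shAlpl over NL-shGFP 9 rose and 4 fell (median 0.39). The shares of all genes tested are those given above.

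Of 6 other receptors, 3 rose in FL-shGFP over NL-shGFP and 2 fell in FL-shAlpl against FL-shGFP. Nr1i2, the gene of the xenobiotic receptor PXR, which some bile acids activate, averaged 71.8 ± 14.7 CPM in FL-shAlpl, 99.8 ± 15.7 in FL-shGFP and 49.2 ± 6.46 in NL-shGFP. It rose by 1.02 ± 0.15 with the CDAA diet and fatty liver (adjusted p = 0.00012) and was lower in FL-shAlpl than in FL-shGFP, with a difference of -0.47 ± 0.15 (adjusted p = 0.0225), and FL-shAlpl was above NL-shGFP by 0.55 ± 0.15 (adjusted p = 0.0202). Nr1h3, the oxysterol receptor LXRα, was raised in both CDAA diet groups, by 0.83 ± 0.17 in FL-shAlpl and 0.80 ± 0.17 in FL-shGFP over NL-shGFP (adjusted p = 0.00348 and 0.00142). Nr1h2, LXRβ, fell by 0.31 ± 0.12 in FL-shAlpl against FL-shGFP (adjusted p = 0.0489). Vdr, the vitamin D receptor, which also binds lithocholic acid, averaged 262 ± 41.2, 239 ± 30.2 and 201 ± 15 CPM in FL-shAlpl, FL-shGFP and NL-shGFP and passed in FL-shAlpl over NL-shGFP (0.39 ± 0.12, adjusted p = 0.0388).

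Of 6 partner genes, 5 were tested. The RXR genes, whose products pair with FXR, went different ways in FL-shGFP over NL-shGFP: Rxra rose by 0.38 ± 0.09 (adjusted p = 0.00364) and Rxrb fell by 0.49 ± 0.13 (adjusted p = 0.00588). Nr5a2 rose by 0.49 ± 0.14 (adjusted p = 0.0113). In FL-shAlpl against FL-shGFP 0 of the 5 passed by edgeR (0 at an unadjusted p below 0.05), and Hnf4a, a nuclear receptor of hepatocytes and enterocytes, had 0.27 ± 0.13 at 584 ± 79.3 CPM in FL-shAlpl and 485 ± 76.8 in FL-shGFP (adjusted p = 0.11).

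Of 12 other transporter genes, 7 rose and 2 fell in FL-shGFP over NL-shGFP, and 5 fell and 1 rose in FL-shAlpl over FL-shGFP. The sterol exporter genes Abcg5 and Abcg8 rose by 3.59 ± 0.40 and 3.4 ± 0.41 in FL-shGFP over NL-shGFP (adjusted p = 2.04e-05 and 3.21e-05), were lower in FL-shAlpl against FL-shGFP, with differences of -1.46 ± 0.36 and -1.16 ± 0.37 (adjusted p = 0.007 and 0.0247) and stayed above NL-shGFP in FL-shAlpl by 2.13 ± 0.38 and 2.24 ± 0.40 (adjusted p = 0.00192 and 0.00179). The apical efflux pump genes Abcb1a and Abcg2 rose by 1.25 ± 0.37 and 1.31 ± 0.27 in FL-shGFP over NL-shGFP and were lower in FL-shAlpl against FL-shGFP, with differences of -1.23 ± 0.37 and -0.83 ± 0.27 (adjusted p from 0.00153 to 0.0262). The organic anion transporter gene Slco2b1 went the other way, at 5.68 ± 0.936 CPM in FL-shAlpl, 3.26 ± 0.948 in FL-shGFP and 9.36 ± 1.5 in NL-shGFP. Slco4a1 was lower in both CDAA diet groups, with differences of -1.03 ± 0.21 in FL-shAlpl and -0.98 ± 0.21 in FL-shGFP against NL-shGFP (adjusted p = 0.0035 and 0.00145).

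Of 6 tested synthesis genes 3 rose in FL-shGFP over NL-shGFP and 2 fell in FL-shAlpl, and of 5 tested genes of conjugation and detoxification likewise 3 rose and 2 fell. Cyp27a1, sterol 27-hydroxylase, averaged 11.4 ± 6.69 CPM in FL-shAlpl, 37.2 ± 10.6 in FL-shGFP and 6.21 ± 1.39 in NL-shGFP, with a fold of 2.58 ± 0.34 in FL-shGFP over NL-shGFP and -1.72 ± 0.33 in FL-shAlpl over FL-shGFP (adjusted p = 6.91e-05 and 0.00177). Cyp3a13 averaged 75.2 ± 29.4 CPM in FL-shAlpl, 189 ± 63.4 in FL-shGFP and 45.6 ± 26.1 in NL-shGFP. Ugt1a1, which shares exons with other genes of its locus, had 1.72 ± 0.30 in FL-shGFP over NL-shGFP and -1.88 ± 0.30 in FL-shAlpl over FL-shGFP (adjusted p = 0.000453 and 0.000545). Scp2 and Ugt2b34, with group means of at least 199 CPM, passed in none of the comparisons. Of the 3 genes of the Fgf15 axis, Malrd1, known in mice for its part in Fgf15 output, averaged 13.6 ± 3.32 CPM in FL-shAlpl, 19.4 ± 4.34 in FL-shGFP and 13.2 ± 0.753 in NL-shGFP and passed in both comparisons with FL-shGFP (0.55 ± 0.17 in FL-shGFP over NL-shGFP, adjusted p = 0.0173, and -0.51 ± 0.17 in FL-shAlpl over FL-shGFP, adjusted p = 0.0331).

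**Figure D5:**
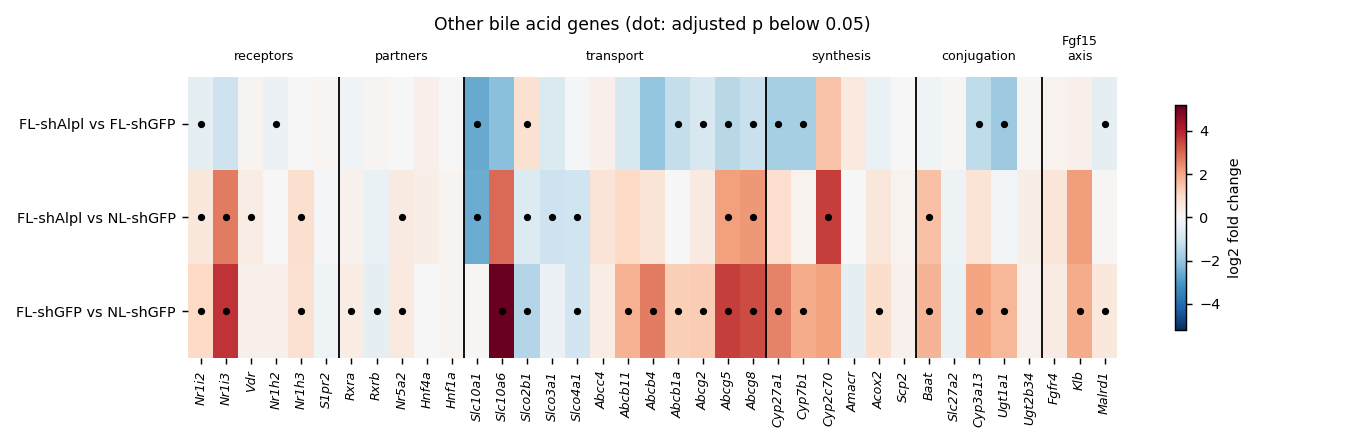
Colour gives the log2 fold change of the 37 other bile acid genes tested, grouped by role, in the 3 comparisons (rows), and a dot marks an adjusted p below 0.05. The row of FL-shGFP over NL-shGFP holds 20 rises and 3 falls, and that of FL-shAlpl over FL-shGFP 1 rise and 12 falls.

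Markers of where cells sit in the crypt moved with the bile acid genes. For this and the next marker lists, 25.1% of all genes tested rose and 21.6% fell in FL-shGFP over NL-shGFP. In FL-shAlpl against FL-shGFP, 18% of all genes tested rose and 17.9% fell. Of 10 surface colonocyte markers, 9 rose in FL-shGFP over NL-shGFP and 8 fell in FL-shAlpl against FL-shGFP, and their summed level was 7850 to 22800 CPM in FL-shAlpl, 15800 to 45000 in FL-shGFP and 3460 to 8720 in NL-shGFP. Slc26a3, the colonic chloride exchanger, is among them, with log2 folds of 2.86 ± 0.38 in FL-shGFP over NL-shGFP and -1.64 ± 0.36 in FL-shAlpl over FL-shGFP (adjusted p = 6.26e-05 and 0.00362). Of 10 crypt stem cell markers, 10 fell in FL-shGFP over NL-shGFP and 9 rose in FL-shAlpl against FL-shGFP, with sums of 154 to 284, 80.7 to 145 and 288 to 403 CPM in FL-shAlpl, FL-shGFP and NL-shGFP. None of these markers was at 0 in all samples of a group. The part of this shift in the changes of Nr1h4, Slc10a2, Slc51a and Slc51b was not tested.

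Markers of other cells moved to differing extents, and the macrophage falls in FL-shAlpl were near the share of all genes tested (17.9%). Of 10 T and NK cell markers, 9 rose in FL-shGFP over NL-shGFP and 10 fell in FL-shAlpl against FL-shGFP, with sums of 10.6 to 25.2 CPM in FL-shAlpl, 80.4 to 225 in FL-shGFP and 12.7 to 56.4 in NL-shGFP. Of 10 macrophage markers 5 rose and 2 fell in these comparisons (sums of 126 to 441 CPM in FL-shAlpl, 263 to 768 in FL-shGFP and 159 to 336 in NL-shGFP), and of 10 stromal markers 6 rose and 3 fell (20.8 to 300 CPM in FL-shAlpl, 57.5 to 356 in FL-shGFP and 9.04 to 57.1 in NL-shGFP). Of 8 L cell markers 4 rose and 1 fell in FL-shGFP over NL-shGFP and 0 passed in FL-shAlpl against FL-shGFP by edgeR (3 at an unadjusted p below 0.05), with sums of 264 to 678 CPM in FL-shAlpl, 348 to 918 in FL-shGFP and 323 to 738 in NL-shGFP. Their part in the bile acid genes' changes was not tested.

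Markers of position along the gut were mixed. The colon identity counts in FL-shGFP over NL-shGFP were not far from the shares of all genes tested (25.1% rose and 21.6% fell). Of 9 tested small intestinal enterocyte genes, 6 rose and 2 fell in FL-shGFP over NL-shGFP and 5 fell in FL-shAlpl against FL-shGFP, with sums of 225 to 362 CPM in FL-shAlpl, 337 to 508 in FL-shGFP and 261 to 415 in NL-shGFP, and Apoa4 was at 0 in NL-shGFP. Of 6 tested colon identity genes, 2 rose and 2 fell in FL-shGFP over NL-shGFP and 4 rose in FL-shAlpl against FL-shGFP (sums of 655 to 767 CPM in FL-shAlpl, 457 to 570 in FL-shGFP and 519 to 582 in NL-shGFP), and Hoxd12 was at 0 in NL-shGFP. Hoxb13, a gene of the distal colon, was higher in both CDAA diet groups, at 102 ± 23.4 CPM in FL-shAlpl and 62.9 ± 32.8 in FL-shGFP, against 6.68 ± 1.64 in NL-shGFP. The part of Hoxb13 in the bile acid genes' values was not tested.

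By root mean square difference of centred log2 CPM, a measure that counts the size of a change as well as its direction, the genes most like Nr1h4 over the 15 samples among 10127 genes were Npc1 (0.167), Gpcpd1 (0.173), Fbxo34 (0.185), Slc39a4 (0.187) and Rab4a (0.199). The other bile acid genes stood far from it, with Abcc3 at place 1988 (0.47), Slc51a at 7173 (0.767), Slc51b at 8428 (0.896), Fabp6 at 9753 (1.27) and Slc10a2 at 9797 (1.31). Those most like Slc51b were Apobec1 (0.267), Prss30 (0.281), Gcnt1 (0.283), Bglap3 (0.31) and Slc26a3 (0.318), and among the bile acid genes Slc51a stood at place 59 (0.556), Slc10a2 at 167 (0.715), Nr1h4 at 472 (0.896), Abcc3 at 1476 (1.13) and Fabp6 at 9338 (1.85). The samples compared share the 3 groups, so this likeness is a description of them.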

How the data were processed

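RNA of mouse colonic crypts was measured in 15 samples, 5 per group. The authors deposited read counts per gene and FPKM. HISAT2 was used, per the submitters' processing notes, and the counting tool, build, annotation and strand setting were not given in the sources used here. Counts of 1 to 12 were even in 72.4% to 77.2% of cases per library. The 10 genes and all lists were chosen with earlier results of these data known.

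Of 32939 genes, 17404 passed filterByExpr by group and entered 1 edgeR 4.0.16 quasi-likelihood fit (robust, TMM, a mean per group, 12 residual degrees of freedom, R 4.3.3), with each contrast tested two-sided and Benjamini-Hochberg adjusted. Differences in within-sample ratios of deposited FPKM were tested by exact permutation (scipy 1.17.1). Promoters were scanned in Python 3.11.15. The code was tested on simulated data.

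All 10 genes are named. Other bile acid genes are named where called with a mean of at least 5 CPM in a group, at most 4 per role and comparison by p, or where abundant and not called. Markers are given as counts and sums. Mean CPM of at least 5 was needed for likeness. Predicted genes (Gm with a number, or names ending in Rik), genes without a symbol and the 10 genes were left out of that ranking.

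Each result was recomputed with RLE factors, with upper-quartile factors, with library totals as they stand, without the filter, with a filter of 1 CPM in 5 samples, with DESeq2 1.42.0, with limma-trend (limma 3.58.1) on log2(FPKM + 1) and log2(FPKM + 0.1), with only the 2 groups compared, with a replicate block, after removal of mitochondrially encoded genes, with each sample left out, and with close NL-shGFP libraries summed, of which replicates 3 and 4 summed alone was added after seeing the data.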

Additional observations from a re-analysis of the deposited data

Results flagged for a closer look

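Of 38 sets of 5 samples looked at for a sample far from the others, 3 were flagged. Chance flags about 1 in 20 sets if values are normally distributed. Where the other 4 samples are at 0, any count above 0 is flagged, so that rate does not apply to Nr0b2 and Fgf15. Fabp6 in FL-shAlpl replicate 1 was at 101 CPM, with the other 4 samples of the group at 3.84 to 10.3 CPM. Nr0b2 in FL-shAlpl replicate 4 was at 0.167 CPM, from 8 counts, with the other 4 samples at 0. Fgf15 in FL-shAlpl replicate 1 was at 0.034 CPM, from 2 counts, with the other 4 samples at 0. The last pair rest on counts so low that 1 or a few fragments make the difference. FL-shAlpl replicate 1 is the sample in which Apoa1 (51.8 CPM) and Enpep (55.9 CPM) were also high. It was the highest of its group for 6 of the 12 small intestinal genes measured and not for the rest, with Fabp1 below the other samples (0.884 against 1.97 to 3.81 CPM).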

How the results depend on the processing

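Nr1h4, Slc10a2, Slc51a and Slc51b kept their direction and call in FL-shGFP over NL-shGFP and in FL-shAlpl over FL-shGFP under every alternative run, as did Abcc3 in both comparisons with NL-shGFP. No direction reversed among called values. In FL-shAlpl over NL-shGFP, 1 of the 10 genes was called in place of 2 with upper-quartile factors, with no filter, and with NL-shGFP replicates 3 and 4 summed, with or without 1 and 2 summed, and 1 to 3 with each sample left out. The count of all genes called there, 3036, was 1340 with both NL-shGFP pairs summed, which leaves 3 samples in that group, and 1979 to 3523 with each sample left out, lowest without FL-shAlpl replicate 2. With both pairs summed Gpbar1 entered the test and was called lower in FL-shAlpl than in FL-shGFP (-1.97 ± 0.58, adjusted p = 0.0231), while Fabp6 was not called (adjusted p = 0.0595). Fabp6 in FL-shAlpl over NL-shGFP, 2.17 ± 0.74 (adjusted p = 0.0545), was called with totals alone and without FL-shAlpl replicate 2, 4 or 5, and its difference was 0.25 without replicate 1. Slc51b in FL-shAlpl over NL-shGFP had an adjusted p of 0.114 with no filter. With a pseudocount of 1, Slc51b to Nr1h4 passed at 1.85 in FL-shGFP over NL-shGFP, -1.09 in FL-shAlpl over FL-shGFP and 0.76 in FL-shAlpl over NL-shGFP. Abcc3 to Abcc2 then gave 0.74 in FL-shGFP and 0.90 in FL-shAlpl over NL-shGFP, which only repeat the rise of Abcc3, since Abcc2 at 0 to 0.11 FPKM lies far below that pseudocount. Rises made up 53.8% of all genes called in FL-shGFP over NL-shGFP and 65.8% with totals alone, and 53.4% in FL-shAlpl over NL-shGFP, 74.9% with totals alone and 42.3% with upper-quartile factors, where totals alone moved the median of all genes to 0.19 in log2. Samples of the same replicate number did not stand out as alike (3 of 15 same-number pairs correlated above 0.1, range -0.353 to 0.326). Pairs of different numbers ran from -0.323 to 0.381. The labels do not say what the numbers mark, and these correlations cannot exclude a shared day or batch. With the replicate block 7295, 5074 and 2457 genes were called in FL-shGFP over NL-shGFP, FL-shAlpl over FL-shGFP and FL-shAlpl over NL-shGFP, and 5, 4 and 2 of the 10 genes, Fabp6 being the call lost. DESeq2 gave no adjusted p for Fabp6. The biological coefficient of variation was 30.2%, so spread between samples rather than depth limits all but Gpbar1, Nr0b2, Fgf15 and Abcc2. Apart from these alternatives the cause of each change was not tested.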
